A study of Mus musculus with 6 samples.

Results

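Granins are acidic proteins of the regulated secretory pathway. They condense in the trans-Golgi network together with peptide precursors, are packed into dense-core vesicles and are themselves cut into smaller peptides. Prohormone convertases cut the precursors after pairs of basic residues, and carboxypeptidase E trims the basic residues that remain. The mossy fibers of dentate granule cells hold dense-core vesicles with opioid peptides and granins in addition to glutamate vesicles. The genes described here are the granins Scg2, Scg3, Scg5, Chga, Chgb and Vgf, and 4 genes of precursor processing, Pcsk1, Pcsk2, Pcsk1n and Cpe, that is 10 genes chosen by name. The probe annotation used here paired 9 of them with a probe set, and Pcsk2 was not analysed here. Each of the 9 had 1 probe set, out of 19938 genes tested.

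The arrays hold RNA of the dentate gyrus (DG) granule cell layer from 3 Bcl11b mutant and 3 control samples, 1 Affymetrix whole-transcript array each. The layer was cut from cresyl violet-stained cryosections by laser capture microdissection. In the tet-off line used, the CaMKIIα promoter drives a transactivator (CaMKIIα-tTA) that switches on tetO-Cre in forebrain neurons, and the mutants carried floxed Bcl11b alleles. All mice, controls included, received doxycycline in the drinking water up to 2 months of age and were analysed 4 weeks after its removal. The sources used here do not give the alleles of the tet-off controls or say whether each array holds 1 animal, so p-values reflect only how far these samples spread, which may be technical.

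Values are log2 expression after robust multi-array averaging (RMA), so a log2 change of 1 is a doubling. The groups were compared with limma, which tests each gene with a variance moderated over all genes, and a gene was called changed at a Benjamini-Hochberg adjusted p under 0.05. Of all genes, 15.2% changed, 9.23% higher and 5.93% lower in the mutant. Bcl11b itself averaged 8.84 ± 0.18 in mutants and 10.42 ± 0.13 in controls on this scale (SD, n = 3 each) with no overlap between them. The values do not tell deleted from intact exons. Medians of the 6 arrays ran between 6.29 and 6.36. On the second principal component, which held 14.5% of the variance, control 1 lay at 16.34 and control 3 at -11.79. The remaining arrays lay between -2.7 and 1.85. Control 1 lay farthest out, so named results that control 1 ends, turns or moves by over 1.5 times are given with and without it. Prox1, the defining transcription factor of granule cells, was at 11.65, 11.59 and 11.57 in mutants and 11.81, 11.70 and 11.45 in controls. It did not pass (adjusted p = 0.788 from limma). Of the 15 granule cell markers described below, 4 did not pass, Prox1 among them, while 8 were lower and 3 higher.

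Several granin promoters are textbook targets of CREB, the activity-dependent factor that binds the cAMP response element (CRE) TGACGTCA. Bases 120 to 1 before the gene start are therefore shown for 6 members, with the CRE or its half-site TGACG in capitals on either strand. The sequences are from a set of RefSeq promoters (GRCm38.p6). The set used here held 8 of the 10 genes and lacked Vgf and Cpe, so these were not searched. The windows are chr1:79440027-79440146 (minus strand) for Scg2, chr2:132781522-132781641 (plus strand) for Chgb, chr13:75089737-75089856 (plus strand) for Pcsk1, chr12:102554821-102554940 (plus strand) for Chga, chr9:75684057-75684176 (minus strand) for Scg3 and chr2:113829092-113829211 (minus strand) for Scg5.
Scg2: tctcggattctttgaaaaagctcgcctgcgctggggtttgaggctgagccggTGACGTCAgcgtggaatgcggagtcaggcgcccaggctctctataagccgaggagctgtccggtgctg
Chgb: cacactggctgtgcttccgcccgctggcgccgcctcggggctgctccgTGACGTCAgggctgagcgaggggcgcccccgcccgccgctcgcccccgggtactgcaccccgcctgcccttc
Pcsk1: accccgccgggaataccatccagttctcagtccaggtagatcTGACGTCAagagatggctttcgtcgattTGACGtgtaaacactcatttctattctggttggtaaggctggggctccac
Chga: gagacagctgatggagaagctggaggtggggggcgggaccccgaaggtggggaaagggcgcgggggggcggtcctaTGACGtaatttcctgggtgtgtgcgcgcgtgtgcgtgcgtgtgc
Scg3: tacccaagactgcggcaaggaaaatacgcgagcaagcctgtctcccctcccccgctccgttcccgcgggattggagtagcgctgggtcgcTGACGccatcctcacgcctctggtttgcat
Scg5: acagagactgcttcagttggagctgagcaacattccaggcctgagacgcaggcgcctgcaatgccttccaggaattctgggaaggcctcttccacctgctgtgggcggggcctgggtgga
A complete CRE began 68 bases before the start of Scg2, 72 before that of Chgb and 78 before that of Pcsk1. Over the full 300 bases searched on both strands, 250 before and 50 after the start, 3 of the 8 promoters held the CRE, as did 1.79% of 32851 promoters of the same length. The half-site TGACG, which every CRE contains, was found in 7 of the 8 promoters and in 20.8% of all promoters. The pentamer TGGGC, which the study names as a putative Bcl11b/Ctip2 binding site, was found in 7 of the 8 and in 56.9% of all promoters. These are letter matches and were not related to binding in these cells.

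Among the granins, 1 fell, 2 rose and 3 did not pass the test. Scg2 transcripts were lower in the mutant layer and those of Scg5 and Scg3 higher. In such tissue RNA, fewer cells of a type and less RNA per cell cannot be told apart. Over the 9 genes measured, 2 were higher and 1 lower, which is 33.3%, beside 15.2% of all genes. All 9 had a mean level above the median gene, where a larger share of genes passed, so these 2 shares are not matched in level. The groups did not overlap for any of the 6 granins, 4 lower and 2 higher in the mutant, and they overlapped for Pcsk1, Pcsk1n and Cpe. Among all genes, groups did not overlap for 31.6%, with 17% higher and 14.6% lower in the mutant. The median log2 change was -0.17 over the 6 granins, -0.11 over the 9 genes and -0.0027 over all genes. For single genes the two-sided exact permutation p was 0.1 for each of the 6 granins, the smallest that 3 against 3 arrays allow.

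Scg2 encodes secretogranin II, the precursor of the peptide secretoneurin, and fell the most of the 9 genes. It was at 9.73, 9.86 and 9.70 in mutants 1 to 3 and 10.43, 10.42 and 10.47 in controls 1 to 3. The highest mutant lay well below the lowest control, and the controls lay within 0.05 of each other. The log2 change was -0.68 (standard error 0.059, adjusted p = 1.32e-04 from limma), a fold of 0.623. By size of decrease it ranked 189 among the 19938 genes. Scg2 passed the test in all 15 alternatives, with changes between -0.73 and -0.65.

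Scg5 encodes a small granin-like chaperone that the convertase Pcsk2 needs to mature. It had a log2 level of 10.29, 10.21 and 10.38 in mutants and 9.91, 9.90 and 9.96 in controls. Every mutant array lay above every control array. The log2 change was 0.37 (standard error 0.060, adjusted p = 0.00356 from limma), a fold of 1.29, and it passed in all 15 alternatives. Its promoter held no complete CRE, and no half-site within the bases shown. Outside those bases, the full promoter search found 3 half-sites. They began 175 bases before the start and at positions 20 and 41 after it.

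Scg3 encodes secretogranin III, which binds other granins and cholesterol-rich membrane of the forming granule. It was at 10.58, 10.68 and 10.57 in mutants and 10.42, 10.26 and 10.30 in controls. The groups were separate by a gap of 0.15 between mutant 3 and control 1. The log2 change was 0.28 (standard error 0.064, adjusted p = 0.0179 from limma), a fold of 1.22. Its call was lost without mutant 1, mutant 2 or control 2 (adjusted p = 0.0524, 0.0759 and 0.0765 from limma), with changes of 0.30, 0.25 and 0.25. It was also lost with the methods' t-test after adjustment over all genes (adjusted p = 0.0944). This is the unpaired test that the study's methods name for comparisons between groups in general, not for the arrays in particular.

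Chga and Chgb encode chromogranins A and B, the most abundant granins of many endocrine cells. Chga was at 10.92, 10.92 and 10.85 in mutants and 10.99, 10.98 and 11.05 in controls. The mutants lay just below the controls, and the log2 change of -0.11 (95% interval -0.23 to 0.013) did not pass (adjusted p = 0.237 from limma). Chgb was at 10.79, 10.87 and 10.74 in mutants and 11.39, 11.07 and 10.97 in controls. Control 1 was the highest array, and the control SD of 0.22 was above the mutant SD of 0.069. The log2 change was -0.34 (95% interval -0.57 to -0.11, adjusted p = 0.0564 from limma). Without control 1 it was -0.22 and passed (adjusted p = 0.0404 from limma), and without control 3 it was -0.43 and also passed (adjusted p = 0.0238).

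Vgf, a neurotrophin-inducible precursor of several secreted peptides, was at 7.25, 7.50 and 7.43 in mutants and 7.59, 7.63 and 7.65 in controls. The mutants lay below the controls, which differed little from each other. The log2 change was -0.23 (95% interval -0.39 to -0.070, adjusted p = 0.0618 from limma). Without control 1 it was -0.25 and passed (adjusted p = 0.0480 from limma).

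**Figure D1:**
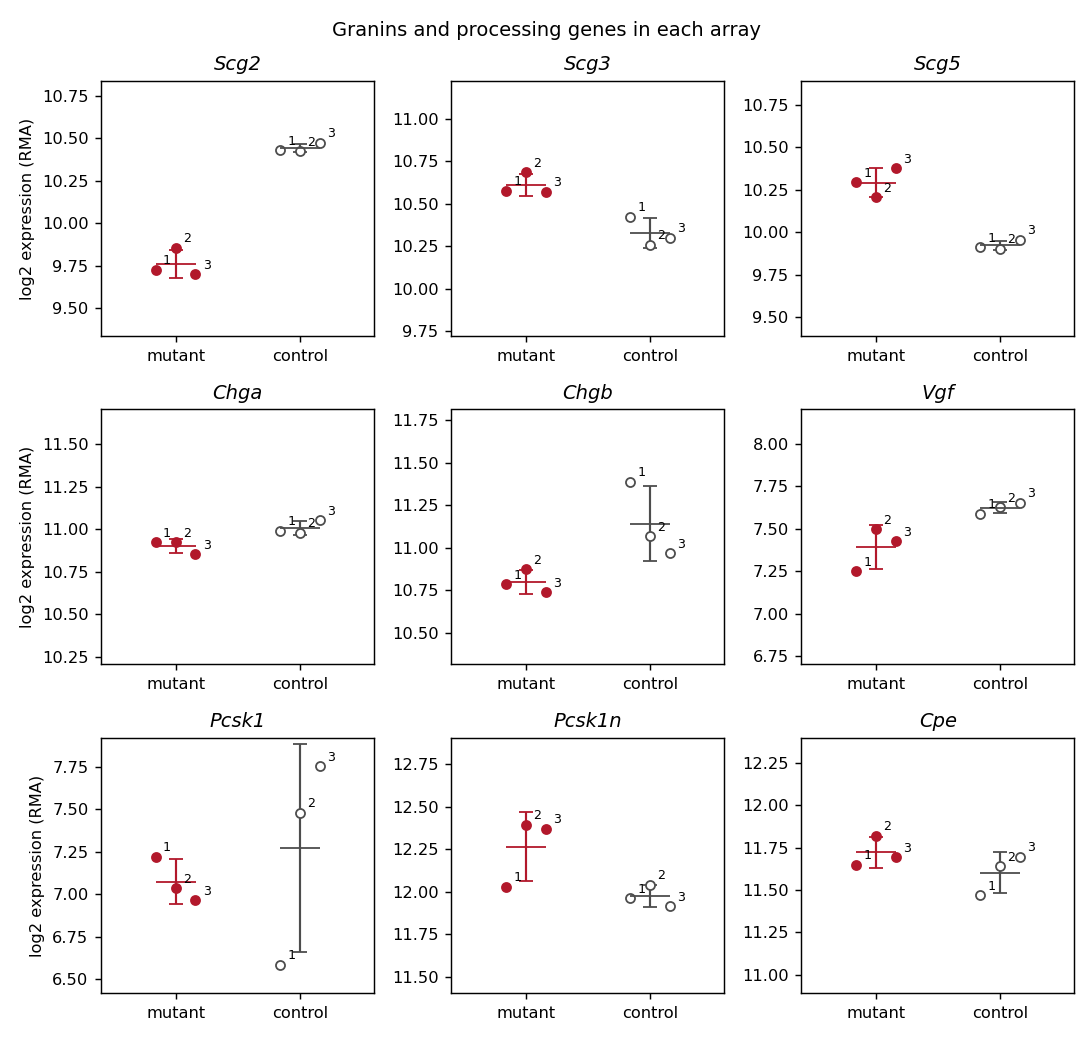
Log2 expression of the 9 measured genes in each array (vertical axis), with mutants on the left and controls on the right of each panel. Points are arrays with their replicate number, and the horizontal line with its bar is the group mean with SD (n = 3 each); every panel spans the same height of log2 values. The 6 granins show no overlap between groups, while control 1 of Pcsk1 lies at 6.59, below all mutants.

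None of the 3 measured genes of precursor processing passed the test with limma, 1 had an unadjusted p under 0.05 and none passed with the methods' t-test after adjustment. Pcsk1 encodes a prohormone convertase that makes the first cuts in many precursors. It was at 7.22, 7.04 and 6.97 in mutants and 6.59, 7.48 and 7.75 in controls. Control 1 lay below all mutants and controls 2 and 3 above them, and the control SD of 0.61 was the largest of the 9 genes. The log2 change of -0.20 had a 95% interval of -0.77 to 0.37 (adjusted p = 0.686 from limma). Without control 1 it was -0.54 and passed (adjusted p = 0.00388 from limma), and without control 3 it was 0.042 (adjusted p = 0.944). Without control 1, 22.5% of all genes changed and 8.68% were lower, and of the 9 genes 2 were higher and 4 lower. Pcsk1 had a mean of 7.17 over the 6 arrays, close to the median gene at 7.06, and detection above background was not measured.

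Pcsk1n encodes proSAAS, a granin-like protein that inhibits the convertase Pcsk1. It was at 12.03, 12.39 and 12.37 in mutants and 11.96, 12.04 and 11.91 in controls. Mutants 2 and 3 lay above all controls, and mutant 1 lay between controls 1 and 2. The log2 change was 0.29 (95% interval 0.073 to 0.51, adjusted p = 0.0807 from limma), and it was 0.41 and passed without mutant 1 (adjusted p = 0.00949). Cpe encodes carboxypeptidase E, which removes basic residues after the convertase cut. It was at 11.65, 11.82 and 11.69 in mutants and 11.47, 11.64 and 11.70 in controls. The groups overlapped, with a log2 change of 0.12 (95% interval -0.053 to 0.29, adjusted p = 0.373 from limma), and Cpe did not pass in any of the 15 alternatives. Its change was 0.052 without control 1 and 0.069 without mutant 2.

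**Figure D2:**
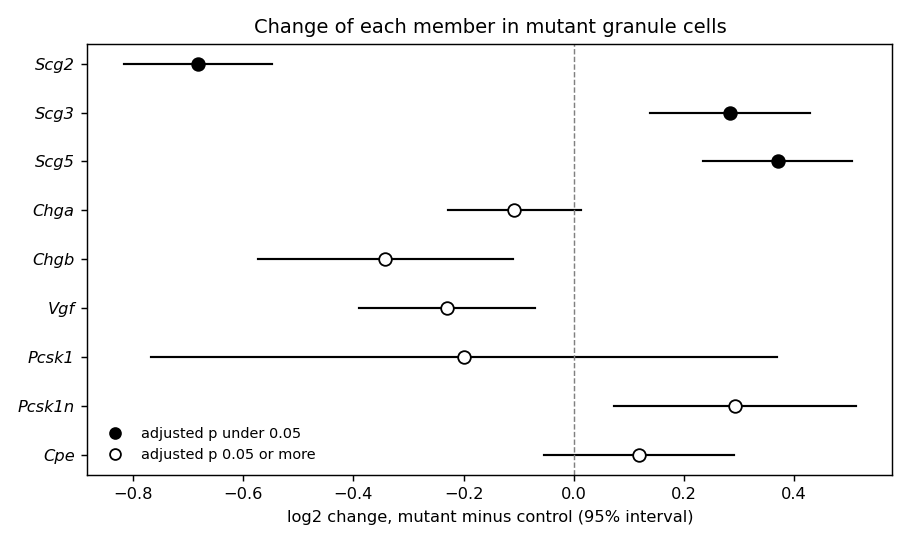
Log2 change of each measured gene, mutant minus control, on the horizontal axis, with its 95% interval, which is not adjusted for the number of genes. Filled circles have an adjusted p under 0.05. Scg2 lies at -0.68, Scg5 at 0.37 and Scg3 at 0.28, and the interval of Pcsk1 is the widest.

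To ask whether members moved apart from each other, the difference of 2 log2 values was taken within each array for 4 pairs. Such a difference does not compare the amounts of 2 transcripts, and only its shift between the groups is read. Each shift is the difference of 2 log2 changes already given, so its size is not a separate result. Cpe minus Scg2 was 1.92, 1.96 and 2.00 in mutants and 1.04, 1.22 and 1.23 in controls. The groups were far apart, with a shift of 0.80 (exact permutation p = 0.1, the smallest possible, two-sided, 0.2 when adjusted over the 4 pairs). Most of that shift was the Scg2 change of -0.68, beside 0.12 for Cpe. Scg2 minus Chgb was -1.06, -1.02 and -1.04 in mutants and -0.96, -0.64 and -0.50 in controls. The groups did not overlap, with a shift of -0.34 (exact permutation p = 0.1, adjusted 0.2). The shift was 0.23 for Chga minus Chgb and 0.49 for Pcsk1n minus Pcsk1, and in both pairs the groups overlapped (exact permutation p = 0.2 and 0.3, adjusted 0.267 and 0.3). Without control 1 these shifts were 0.10 and 0.83, and without control 3 they were 0.34 and 0.22.

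**Figure D3:**
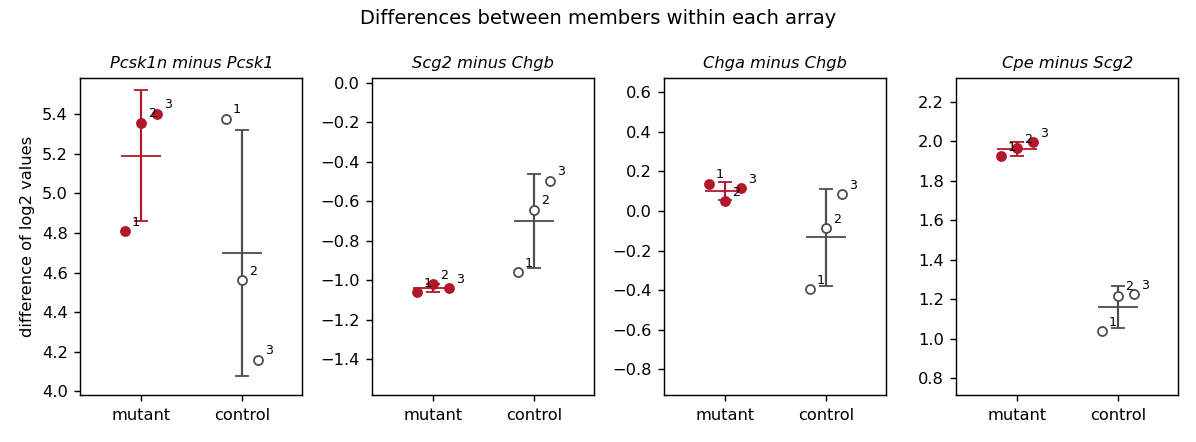
Difference of 2 log2 values within each array (vertical axis) for 4 pairs of genes, mutants on the left and controls on the right. Points are arrays with their replicate number, and the horizontal line with its bar is the group mean with SD (n = 3 each). Cpe minus Scg2 lies between 1.92 and 2.00 in mutants and between 1.04 and 1.23 in controls.

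Among the pathway lists, which were chosen with earlier results known, that of peptide and growth factor precursors held the largest changes. Whether the members package or cut each of these precursors in granule cells was not tested. Of 43 precursors of peptides and growth factors measured, 2 were higher, 7 lower and 34 did not pass, with a median log2 change of -0.016. The share that passed was 20.9%, beside 15.2% of all genes. With the methods' t-test after adjustment, 0 were higher and 3 lower. The enkephalin precursor Penk and the dynorphin precursor Pdyn, which the study itself selected on these samples, had log2 changes of -4.40 and -1.42. The study also reported both as lower in mutants by quantitative RT-PCR. The gastrin-releasing peptide precursor Grp was at 7.02, 6.43 and 6.69 in mutants and 7.30, 7.63 and 7.94 in controls, and its change was -0.91 on the log2 scale (limma, adjusted p = 0.00940, standard error 0.18). The neuropeptide Y precursor Npy had a log2 change of -0.58 and the neurotrophin Bdnf of -0.49. Npy did not pass without mutant 1 (log2 change -0.52, adjusted p = 0.0528 from limma). Grp, Npy and Bdnf did not pass with the methods' t-test after adjustment (adjusted p = 0.145, 0.136 and 0.105). The cholecystokinin precursor Cck went the other way. It was at 12.16, 12.42 and 12.28 in mutants and 9.94, 10.88 and 11.35 in controls, and its change was 1.56 on the log2 scale (limma, adjusted p = 0.00709, standard error 0.29). As for Pcsk1, control 1 was the lowest array, and without it the change of Cck was 1.17 (adjusted p = 2.40e-04 from limma). Cck did not pass with the methods' t-test after adjustment (adjusted p = 0.137). Without mutant 1, 4 precursors were lower, and without any 1 of the mutants 1 was higher.

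Of the other enzymes that cut or modify peptides, few passed the test. None of 6 other proprotein convertases passed with limma, with an unadjusted p under 0.05 or with the methods' t-test, among them Furin, with a log2 change of 0.095, and Pcsk5, with -0.099. The negative sign of Pcsk5 rested on control 1, at 8.18. Controls 2 and 3 were at 7.74 and 7.79, and mutants at 7.80, 7.79 and 7.83. Of 16 trimming and modifying enzymes and peptidases, 2 were higher and 1 lower, and the median log2 change was 0.10. The share that passed was 18.8%, beside 15.2% of all genes. With the methods' t-test after adjustment, 1 was higher and 0 lower. Pam, the enzyme that amidates the end of many neuropeptides, was at 9.65, 9.68 and 9.58 in mutants and 9.81, 9.98 and 10.01 in controls. Its log2 change was -0.30 (standard error 0.067, adjusted p = 0.0174 from limma), and the call was lost without mutant 1, mutant 3 or control 2 (adjusted p = 0.0615, 0.0780 and 0.0738 from limma) and with the methods' t-test (adjusted p = 0.104). Without control 1, 2 genes of this list were lower. The membrane carboxypeptidase Cpm and the carboxypeptidase-like Cpxm1 had log2 changes of 0.81 and 0.43, and their levels in both groups lay below the median gene. Cpxm1 did not pass with the methods' t-test after adjustment (adjusted p = 0.107).

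Of 45 genes of dense-core vesicle formation, transport and release, 6 were higher, 3 lower and 36 did not pass, with a median log2 change of 0.072. This is 20%, beside 15.2% of all genes, which are not matched to the list in level. The count of genes that were higher was 3 without mutant 1, mutant 2, mutant 3 or control 2, and 10 without control 1. With the methods' t-test after adjustment, 3 were higher and 1 lower. Resp18, a secretory granule protein of neuroendocrine cells, was at 8.38, 8.45 and 8.36 in mutants and 7.21, 7.18 and 7.15 in controls. The arrays of each group lay within 0.10 of each other, and the log2 change was 1.21 (standard error 0.053, adjusted p = 3.84e-06 from limma). The priming factors Cadps and Cadps2, paralogs that prepare dense-core vesicles for fusion, changed in opposite directions. Cadps was at 11.14, 11.09 and 11.01 in mutants and 10.63, 10.68 and 10.75 in controls, a log2 change of 0.39. Cadps2 was at 8.46, 8.32 and 8.43 in mutants and 8.77, 8.64 and 8.85 in controls, a log2 change of -0.35 (adjusted p = 0.00234 and 0.0107 from limma). Neither pair of groups overlapped. Myrip, a linker of granules to actin motors, had a log2 change of 0.58. The granule GTPase Rab27b had -0.47 and the vesicle calcium sensor Syt10 -0.70. Cadps2 and Syt10 did not pass with the methods' t-test after adjustment (adjusted p = 0.0937 and 0.0705).

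**Figure D4:**
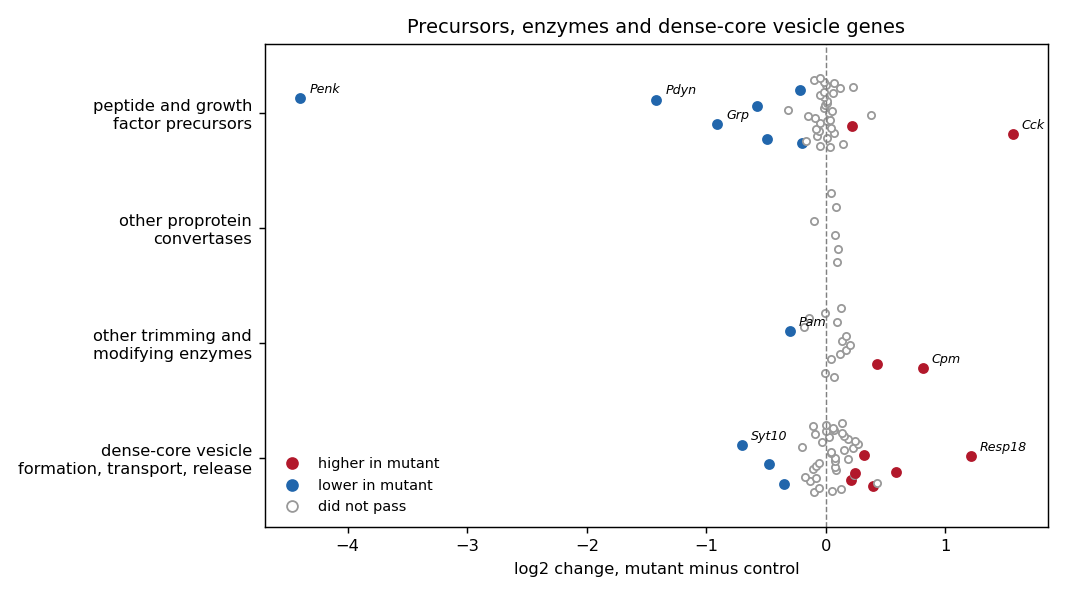
Log2 change, mutant minus control (horizontal axis), of every measured gene in 4 lists of genes that supply, cut, modify or carry the cargo of dense-core vesicles. Filled points passed the test and open points did not; vertical spread within a list only separates the points. Penk at -4.40 and Cck at 1.56 are the ends of the range, and none of the 6 other proprotein convertases passed.

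Granins and their convertases are also made by interneurons and other neurons, so markers of other cells stand beside these results. The 15 mature granule cell markers included 3 that were higher and 8 that were lower, at a mean log2 level of 10.58 to 10.64 in mutants and 11.07 to 11.10 in controls. Among the higher ones was Tdo2, with a log2 change of 1.13. Among the lower ones were C1ql2, with a log2 change of -3.29, and Dsp. The study reports binding of Bcl11b/Ctip2 to C1ql2 promoter sequence and calls Dsp its direct target. The part of such targets in the lower mean was not tested. With the methods' t-test after adjustment, 3 were higher and 4 lower. Of 9 markers of immature neurons, 4 were higher, with a mean of 8.48 to 8.63 in mutants and 8.22 to 8.52 in controls. The microtubule protein Dcx had the largest of these changes, 1.07 on the log2 scale and 1.26 without control 1. By the methods' t-test after adjustment 2 were higher, without Dcx (adjusted p = 0.0651). Of 15 interneuron markers, 1 was higher and 2 lower, with a mean of 7.97 to 8.07 in mutants and 7.80 to 8.10 in controls. Those that passed were Cck and Npy, named above, and the GABA-synthesizing enzyme Gad1, with a log2 change of -0.27. None of the 15 were lower without mutant 1, and 1 was lower without mutant 3 or control 3. None of them passed with the methods' t-test after adjustment, while 3 passed with limma. Of 13 markers of mossy and pyramidal cells, 5 were higher and 2 lower, with a mean of 8.34 to 8.44 in mutants and 8.15 to 8.21 in controls, and 1 was lower without mutant 1, mutant 3 or control 2. The methods' t-test gave 3 higher and 1 lower after adjustment. With limma, 15.2% of all genes passed. The share was 73.3% of granule cell, 44.4% of immature neuron, 20% of interneuron and 53.8% of mossy and pyramidal cell markers. The part of these cells in the changes of Scg2, Scg3 and Scg5 was not tested.

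Markers of non-neuronal cells were counted in the same way. With limma, 20% of astrocyte, 22.2% of endothelial and mural and 11.1% of microglia markers passed, beside 15.2% of all genes. Of 10 astrocyte markers, 2 were higher, with a mean of 9.04 to 9.26 in mutants and 8.83 to 9.13 in controls. Gfap, the astrocyte intermediate filament, had a log2 change of 0.54, and did not pass without control 2 (log2 change 0.48), when 1 astrocyte marker was higher. Neither astrocyte marker passed with the methods' t-test after adjustment. Of 9 endothelial and mural markers, 2 were higher, with a mean of 6.61 to 6.80 in mutants and 6.51 to 6.65 in controls, and 1 was higher without mutant 2, mutant 3 or control 3 and with the methods' t-test after adjustment. Of 9 microglia markers, 1 was lower, with a mean of 6.79 to 6.93 in mutants and 6.85 to 7.27 in controls, and 5 were lower without control 1 and 0 with the methods' t-test after adjustment. Of 9 oligodendrocyte lineage markers none passed with limma or with the methods' t-test after adjustment, and 1 had an unadjusted p under 0.05. With limma, 1 was lower under array weights, the filter on dim genes, a second quantile normalization, the replicate block, and without mutant 2 or control 1. Their part in the granin results was not tested.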

How the data were processed

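The authors deposited log2 values from RMA, run in Affymetrix Expression Console per the labels, which corrects background, quantile-normalizes the arrays and gives each probe set 1 value. The sources used here give no versions, settings or genome build for this step. Quantile normalization would hide a shift shared by all genes. Of 35556 probe sets, 21789 were paired with 1 gene, 1621 with several and 12146 were not listed. A gene with several probe sets was represented by the one highest on average in the 6 arrays, without a filter on level. Symbols were checked by Entrez number against the GRCm38.p6 RefSeq table, which matched 21698 of these probe sets and changed 0 symbols.

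Groups were compared over all 19938 genes without covariates, by lmFit and eBayes of limma 3.58.1 (R 4.3.3). For the arrays, the study's methods name BRB-ArrayTools without a test. For comparisons between groups in general they name an unpaired two-tailed t-test, called the methods' t-test here and used as an alternative. Pairs of members were compared within arrays with a two-sided exact permutation test, of which 4 of 6 planned pairs could be run, since 2 include Pcsk2. Genes outside the family are named by rule: up to 6 per pathway list by smallest p among changed genes without overlap, up to 3 changed genes per marker list, and Penk and Pdyn. Furin, Pcsk5, Prox1 and Dsp stand outside this rule and were named after their values were seen. The rule also named genes whose values are not printed. The members and lists were chosen with earlier results of these data known, and are described by counts, with no set test. The test was run on simulated data with independent noise and fewer changed genes than were called here. This does not measure its errors on these arrays.

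Deviations from the group means of same-numbered arrays were compared to see whether the numbers pair samples. No source says what a number marks, and the arrays were not treated as pairs. Precision is limited by the small number of arrays.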

Additional observations from a re-analysis of the deposited data

How the results depend on the processing

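Alternatives were the methods' t-test with and without adjustment, a trended robust prior, array weights, only genes at or above the median gene, the mean of all probe sets, a second quantile normalization, median-centred arrays, a block for the replicate number, and leaving out each array in turn. Of 135 member values, 112 kept direction and side of the threshold, 18 gained a call, 4 lost one, all of Scg3, and 1 changed sign. The last was Pcsk1, at 0.042 without control 3, beside -0.54 and a gained call without control 1. The 4 losses of Scg3 include the one with the methods' t-test after adjustment (adjusted p = 0.0944). The cause was not tested.

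Of the 9 genes, 3 were lower with the methods' t-test unadjusted, array weights, the filter on dim genes, the second quantile normalization and the replicate block, and 2 were lower with the trended prior. Chgb and Vgf were the genes added with array weights (adjusted p = 0.0113 and 0.0172 from limma), the filter (0.0427 and 0.0481) and the second quantile normalization (0.0491 and 0.0438), where Pcsk1n also passed (0.0464). The filter left out Cpm, Cpxm1 and Tmem119. With the methods' t-test after adjustment, 1 was higher. Leaving out 1 array gave 1 to 2 higher and 1 to 4 lower. Over all genes, the methods' t-test gave 1995 lower unadjusted, and 694 higher and 447 lower after adjustment. Array weights gave 3156 higher and 2371 lower, and leaving out 1 array 1206 to 2756 higher and 678 to 1731 lower, with counts moved by over 1.5 times without mutant 1, mutant 3 and, for lower genes, mutant 2 or control 2. Bcl11b kept its call in all 15 alternatives. The 4 within-array differences kept their sign in all alternatives run on them, with 0.22 to 0.83 for Pcsk1n minus Pcsk1, 0.10 to 0.34 for Chga minus Chgb, -0.47 to -0.24 for Scg2 minus Chgb and 0.74 to 0.83 for Cpe minus Scg2 when 1 array was left out. Of 360 counts over other lists, 301 stayed within 1.5 times, and of 447 values of the 30 other genes named by rule, 25 lost their call and 0 changed sign.

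Deviations from the group means correlated at 0.16, -0.033 and 0.12 between arrays of 1 number, and 4 of the 6 arrays were closest to their own number, so the replicate block is an alternative only. With it, Chgb, Vgf and Pcsk1n also passed (adjusted p = 0.0341, 0.0492 and 0.0484 from limma).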
